A study of Mus musculus with 18 samples.

Results

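The clustered histone genes are the genes for the histones that are made in bulk while DNA is copied, and they were followed here in CD4+ effector T cells from the spleen and the gut of mice. The members were all rows whose Ensembl identifier carries a symbol of the form Hist1h, Hist2h, Hist3h or Hist4h in the GENCODE vM21 annotation. Of 70 such genes, 68 were in the table of 34162 genes, and Hist1h2bm and Hist1h2bh are not analysed here. They fell into 6 genes of class H1, 20 of H2A, 17 of H2B, 12 of H3 and 13 of H4. The Hist1 group on chromosome 13 held 54 of them, the Hist2 group on chromosome 3 held 10, the Hist3 group on chromosome 11 held 3, and Hist4h4 lies alone on chromosome 6. The members were selected by name and not by a measured value, but the family itself was chosen from results of these data, among them the genotype values of Hist1h4n, which therefore support nothing here.

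Each library was made from about 500 sorted cells. They were recovered 3 weeks after transfer into Rag deficient mice, which form neither T nor B cells. The donor cells were wild type C57BL/6 cells that carry the CD45.1 surface marker, or C57BL/6 Nr1i3-/- cells, which lack the nuclear receptor CAR. The wild type arm therefore differs from the CAR-deficient arm in the congenic marker as well as in Nr1i3. Cells came from the spleen, the colon lamina propria (cLP) and the small intestine lamina propria (siLP), with 3 libraries in each of the 6 groups and 18 in all.

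Histones H2A, H2B, H3 and H4 form the core around which DNA is wound, and H1 binds the linker DNA between cores. Most clustered histone genes are transcribed during S phase with the help of the coactivator NPAT. Their messenger RNAs end in a short stem-loop bound by SLBP in place of a poly(A) tail. Effector T cells that divide make these RNAs in large amounts, while cells that leave the cell cycle make less of the stem-loop forms. The cDNA kit named in the labels, SMART-Seq v4, starts cDNA from an oligo(dT) primer, so RNAs without a poly(A) tail are copied less readily.

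In the annotated transcripts, 44 of the 68 members carried a 16-base stem-loop after the stop codon, and 18 carried the poly(A) signal AATAAA there. Only 5 had more than 1 exon. The stem-loop was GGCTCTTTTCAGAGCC in 24 members, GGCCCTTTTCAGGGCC in 7 and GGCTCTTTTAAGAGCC in 6. The sequences that follow show the stem-loop in capitals with the 14 transcript bases before it, from GENCODE vM21 transcripts. They are shown because the first belongs to the member with the highest level and because 2 near-identical genes carry the same end.
Hist1h2ap: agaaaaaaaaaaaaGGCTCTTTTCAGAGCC
Hist1h2ao: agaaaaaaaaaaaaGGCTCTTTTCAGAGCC
Hist1h2ag: tgatcgccaacaaaGGCTCTTTTCAGAGCC
Hist1h1c: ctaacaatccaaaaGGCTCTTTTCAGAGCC
Hist1h4n: ctttctcaactaaaGGCCCTTTTCAGGGCC
Hist1h4m: ctttctcaactaaaGGCCCTTTTCAGGGCC
A run of 12 adenines stood directly before the stem-loop in Hist1h2ap and Hist1h2ao. Hist1h2ac had a run of 15 adenines that ended 1187 bases before its transcript end. These were the 3 members with a run of 12 or more, and 4.07% of 141767 annotated transcripts had one. The longest run in a member had a median of 5 adenines. The part of such runs in the levels was not tested.

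The genes overlap in sequence. For 41 members most of the 31-base words of their transcripts also occur in another gene, so their estimated counts depend on how reads were divided between copies. The pair Hist1h4n and Hist1h4m is shown because the genotype values of its members had opposite signs. Over the first 402 transcript bases they differed at 1 position, A36G, counted from base 1 of the Hist1h4n transcript, which is 3 bases before the start codon. Bases 22 to 49 of both are shown with that position in capitals, since it is the only base that tells the shared stretch apart.
Hist1h4n: acagttttgtcttcAtcatgtctggtcg
Hist1h4m: acagttttgtcttcGtcatgtctggtcg
Hist1h4n (ENSMUSG00000069305, chr13:21831767-21832196, minus strand of GRCm38, 1 exon) has a model of 430 bases, 28 longer at its 3′ end than that of Hist1h4m (ENSMUSG00000069306, chr13:21811746-21812147, plus strand, 1 exon). The genes lie 19619 bases apart. Hist1h2ap shared 93.4% of its words with Hist1h2ao, and Hist2h2aa2 shared 100% of its words with Hist2h2aa1.

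The promoters of the H4 pair matched as closely. The 150 bases before each RefSeq start (GRCm38.p6) were the same in 149 of 149 bases when shifted by 1. Both are shown beside the promoter of Hist1h1c, the only member that edgeR called higher in both gut sites, with motifs TATAAA and CCAAT in capitals. Their places are chr13:21832198-21832347 on the minus strand for Hist1h4n, chr13:21811596-21811745 on the plus strand for Hist1h4m and chr13:23738657-23738806 on the plus strand for Hist1h1c.
Hist1h4n: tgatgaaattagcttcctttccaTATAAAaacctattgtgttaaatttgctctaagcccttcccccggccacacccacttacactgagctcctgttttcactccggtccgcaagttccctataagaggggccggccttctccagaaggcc
Hist1h4m: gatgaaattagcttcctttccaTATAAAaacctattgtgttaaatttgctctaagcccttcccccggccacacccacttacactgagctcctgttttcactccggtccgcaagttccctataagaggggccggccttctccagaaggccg
Hist1h1c: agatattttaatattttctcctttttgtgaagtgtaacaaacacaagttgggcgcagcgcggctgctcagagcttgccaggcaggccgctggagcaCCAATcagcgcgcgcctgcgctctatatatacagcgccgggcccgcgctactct
Promoters were matched for 59 members. Within 250 bases before the start and on either strand, CCAAT was found in 48 of them (81.4%) against 33.8% of 32851 promoters. TATAAA was found in 28 (47.5%) against 12.4%. A match is a run of letters and not a measured site.

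Total estimated counts ran from 19605135 to 25436389 per library, with 15466 to 18819 genes detected, and 3 counts, taken as the floor, equalled between 0.108 and 0.185 CPM (counts scaled to TMM-adjusted library size). Detected genes numbered 15466 to 16128 in the 6 libraries called a, whose columns have no ending, and 17013 to 18819 elsewhere. The T cell gene Cd3e lay between 555 and 1372 CPM and Cd4 between 109 and 236 CPM in every library, while Cd8a reached at most 2.44 CPM. The deleted gene Nr1i3 had counts in 4 of 9 wild type libraries, up to 36, and in 5 of 9 CAR-deficient ones. The highest of these was 196, in the siLP library labelled CAR-deficient a, so Nr1i3 does not check the labels here. Each direction of a genotype value rests on the labels of the libraries compared. The library with 196 counts enters the siLP values, the average over the organs and the comparison of gut with spleen.

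One H2A gene outweighed all the other members. To compare genes, levels were taken per length, as CPM per kilobase (kb) of the longest annotated transcript. Hist1h2ap (ENSMUSG00000094777, chr13:21833026-21833507, minus strand, 1 exon) had a mean of 4127 ± 1517 CPM per kb (SD over 18 libraries), from 1352 to 6771, and ranked 16 among the 34162 genes. It held 76.9% of the level summed over the members and stood 43.3-fold above the next, Hist2h2aa2. Its near copy Hist1h2ao, with the same run of adenines and the same stem-loop, had a mean of 8.52 CPM per kb. Because the 2 share nearly all their words, the division of reads between them is uncertain.

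Among the other H2A genes Hist2h2aa2 (95.4 ± 55.8 CPM per kb) and Hist2h2aa1 (76.3 ± 34.1 CPM per kb) came next, and these neighbours did not differ beyond their spread. The highest H4 genes were Hist1h4n (79.6 ± 62.9 CPM per kb), Hist1h4c (47.3 ± 33.4 CPM per kb) and Hist1h4d (39.8 ± 17.8 CPM per kb). Their ranges over the libraries overlapped. Class H2B was led by Hist1h2bj (67.05 ± 35.4 CPM per kb), Hist2h2bb (58.6 ± 37.4 CPM per kb) and Hist1h2bc (34.7 ± 17.4 CPM per kb), of which the last has more than 1 exon.

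Among H3 genes Hist2h3b had 49.0 ± 30.6 CPM per kb, Hist1h3a 25.4 ± 12.9 CPM per kb and Hist1h3e 21.4 ± 13.3 CPM per kb. The highest H1 genes were Hist1h1c at 37.9 ± 19.1 CPM per kb, Hist1h1b at 21.4 ± 12.3 CPM per kb and Hist1h1e at 12.8 ± 7.57 CPM per kb. The medians of the member means were 9.22 CPM per kb for H1, 13.8 for H2A, 9.33 for H2B, 7.65 for H3 and 10.8 for H4, so the classes differed by less than the members within any of them. Of the 68 members, 34 had a mean of 10 CPM per kb or more, 3 had a mean under 1, and 50 had counts in all 18 libraries.

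The lowest were the testis linker histone Hist1h1t, at 0.0385 CPM per kb with counts in 1 library, the testis H2B Hist1h2ba, at 0.0398 CPM per kb with counts in 3 libraries, and Hist2h3c1 at 0.319 CPM per kb. The 44 members with a stem-loop in their annotated transcript had a median of the member means of 12.7 CPM per kb. The 24 with none annotated had 5.35 CPM per kb. The ranges of the 44 and the 24, 0.0385 to 4127 and 0.0398 to 58.6 CPM per kb, overlapped widely. Among the 24, 13 had no bases annotated after the stop codon, so no stem-loop could be found in them. Those 13 had a median of 14.9 CPM per kb, above that of the 44. The medians therefore do not show that genes lacking a stem-loop have lower levels. Lengths are those of the annotated models, uncorrected for fragment size.

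**Figure D1:**
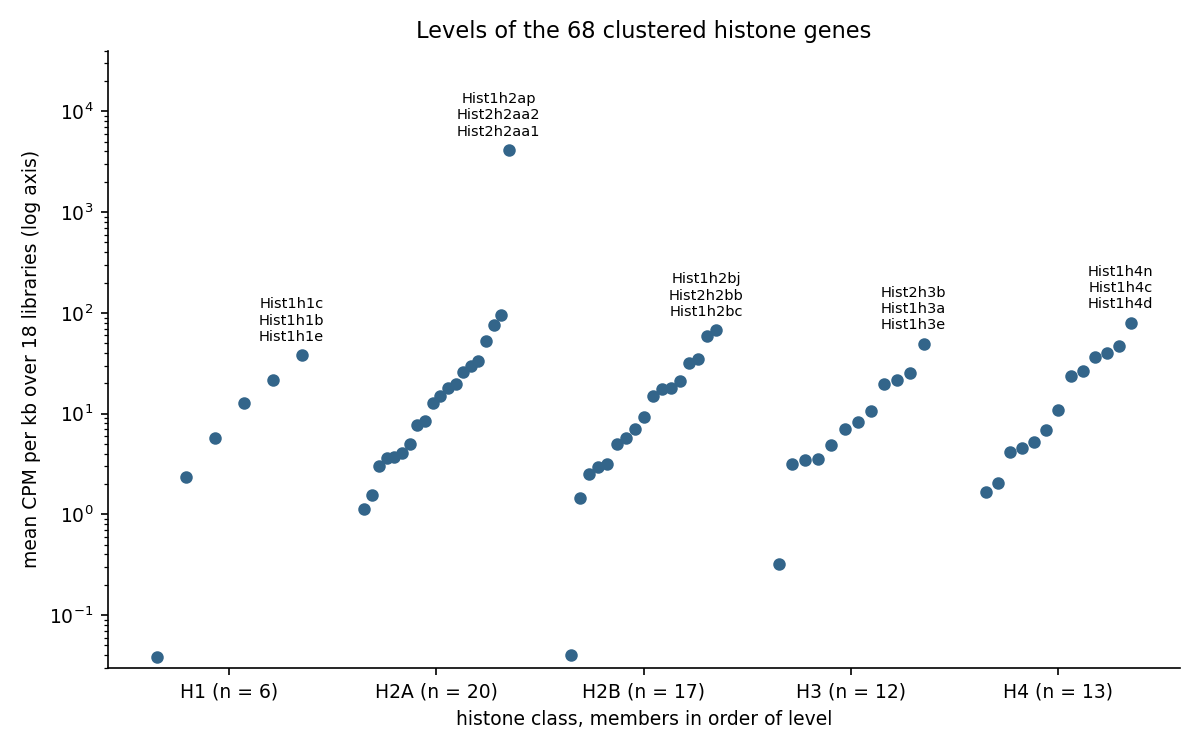
Mean CPM per kb over 18 libraries of each of the 68 members, on a log axis, with the members of each class in order of level and the names of the 3 highest above each class (highest on top). Hist1h2ap at 4127 CPM per kb stands alone, and the next member, Hist2h2aa2, lies at 95.4 CPM per kb.

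Levels are compared between libraries in CPM from here on. In libraries a, b and c of wild type spleen Hist1h2ap stood at 2624, 2420 and 2074 CPM, and in those of CAR-deficient spleen at 2660, 2274 and 1748 CPM. Wild type cLP gave 3263, 1126 and 1342 CPM and CAR-deficient cLP gave 1979, 652 and 1142 CPM. Wild type siLP gave 3006, 2318 and 2775 CPM and CAR-deficient siLP gave 1332, 1497 and 1575 CPM. The siLP genotypes did not overlap, the other groups did, and both cLP libraries a lay above the b and c libraries of their genotype. In cLP against spleen Hist1h2ap differed by -0.57 ± 0.28 on the log2 scale (edgeR adjusted p = 0.358). Without the 6 libraries a, a fit chosen after seeing the data, it differed by -0.996 ± 0.191 (edgeR adjusted p = 0.0177). It was not called without the 6 libraries b or without the 6 libraries c. In siLP against spleen it differed by -0.21 ± 0.28 (edgeR adjusted p = 0.903).

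The other members together took 505 to 916 CPM in spleen (median 772), 585 to 872 CPM in cLP (median 589) and 765 to 1380 CPM in siLP (median 1252), over 6 libraries each. Of the siLP libraries only the CAR-deficient library c, at 765 CPM, lay within the range of the spleen. By class, the siLP medians were 144 CPM for H1, 274 for H2B, 135 for H3 and 300 for H4, against 74.2, 161, 85.2 and 177 CPM in spleen. H2A without Hist1h2ap had medians of 330 CPM in siLP and 222 CPM in spleen. In bulk RNA, fewer cells in S phase and less histone RNA per cell cannot be told apart.

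**Figure D2:**
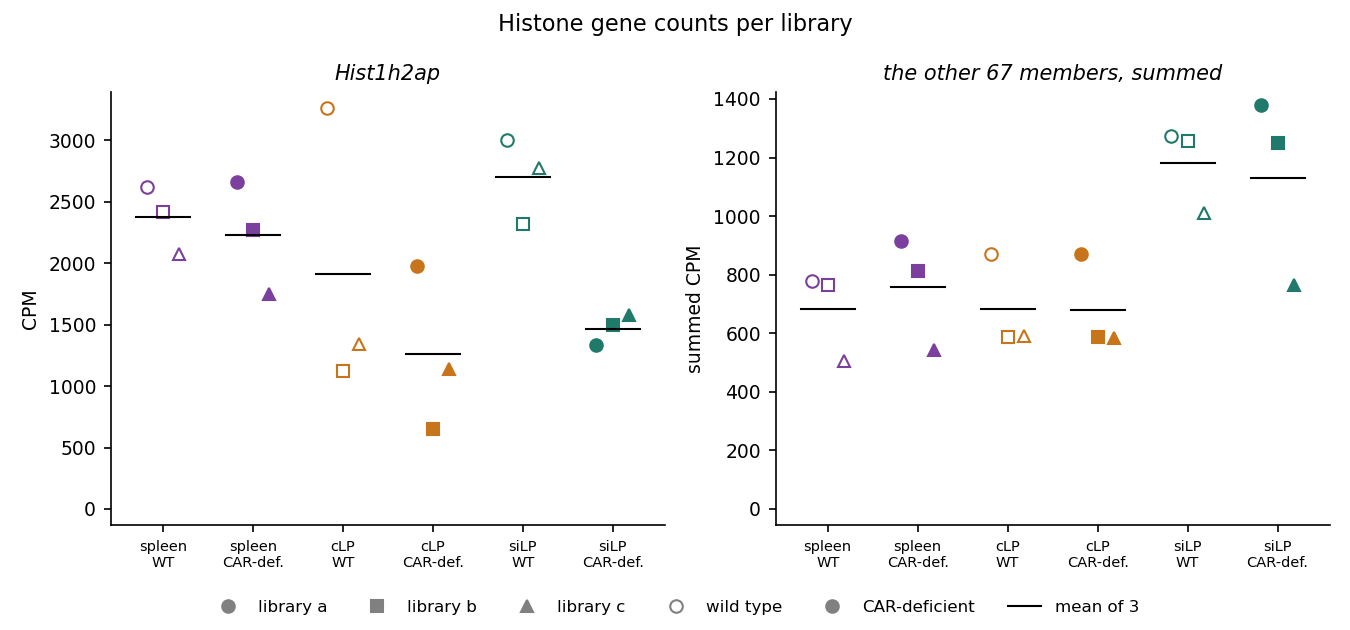
CPM per library of Hist1h2ap (left) and summed CPM of the other members (right) by organ and genotype, with library a, b and c as circle, square and triangle, open for wild type and filled for CAR-deficient, and a bar at the mean of 3. In the right panel 5 of the 6 siLP libraries lie above every spleen and cLP library.

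The organ comparisons asked which members differ between the sites where the transferred cells settled, averaged over the genotypes. All fits ran over the 14876 genes that passed edgeR's expression filter, 66 members among them; Hist1h1t and Hist1h2ba did not pass. In siLP against spleen 4 of the 66 members were called, all higher, against 0.847% of all genes tested, 0.807% higher and 0.0403% lower (edgeR quasi-likelihood test, Benjamini-Hochberg adjusted p under 0.05). They came from 4 classes: Hist1h1c, Hist2h2aa2, Hist1h2bn and Hist1h4h. In cLP against spleen 1 member was called, Hist1h1c, against 3.07% of all genes, 2.72% higher and 0.35% lower. DESeq2 called 7 members in siLP and 3 in cLP against spleen, against 2.99% and 7.01% of all genes with an adjusted p. Hist1h1c, Hist2h2aa2 and Hist3h2a were called higher in both by DESeq2.

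Hist1h1c (ENSMUSG00000036181, chr13:23738808-23740367, plus strand, 1 exon) encodes a linker histone, and its transcript carries both a stem-loop and a poly(A) signal. It had 21.6 to 40.9 CPM in spleen (median 28.6), 39.2 to 88.4 CPM in cLP (median 73.2) and 61.9 to 138 CPM in siLP (median 69.5), over 6 libraries each. Every siLP library lay above every spleen library, while in cLP the wild type library a, at 39.2 CPM, lay below 1 of the 6 spleen libraries. The log2 fold change was 1.49 ± 0.25 (SE) in siLP (edgeR adjusted p = 0.00474) and 1.28 ± 0.25 in cLP (edgeR adjusted p = 0.00972). It passed in all 18 fits that left out 1 library, but not in the fits without the 6 libraries b or without the 6 libraries c. Those fits gave 1.69 and 1.43 for siLP with edgeR adjusted p = 0.17 and 0.447, and 1.21 and 1.24 for cLP with edgeR adjusted p = 0.427 and 0.33.

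Hist2h2aa2 (ENSMUSG00000063954, chr3:96239749-96240276, minus strand, 1 exon) encodes a core histone H2A. It had 19.60 to 34.7 CPM in spleen (median 24.6), 31.1 to 72.0 CPM in cLP (median 47.9) and 47.8 to 131 CPM in siLP (median 63.8). No siLP library overlapped the spleen range, and the log2 fold change was 1.53 ± 0.27 (edgeR adjusted p = 0.00726). All its words also lie in Hist2h2aa1 and in Gm20634, which is not analysed here, so its own level is uncertain. The sum of Hist2h2aa1 and Hist2h2aa2 was 45.6 to 81.0 CPM in spleen and 86.0 to 224 CPM in siLP. The sum rose by 1.2 ± 0.27 on the log2 scale (edgeR adjusted p = 0.0456). Hist2h2aa2 did not pass without the 6 libraries a (1.31, edgeR adjusted p = 0.0523), b (1.43, edgeR adjusted p = 0.525) or c (1.8, edgeR adjusted p = 0.156).

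Hist1h2bn (ENSMUSG00000095217, chr13:21754123-21754503, plus strand, 1 exon), a core histone H2B gene, had the largest change of the 4. It had 0.369 to 4.04 CPM in spleen (median 1.87), 1.38 to 4.68 CPM in cLP (median 2.2) and 6.59 to 18.2 CPM in siLP (median 12.5). The siLP libraries lay above all others, with a log2 fold change over spleen of 2.63 ± 0.56 (edgeR adjusted p = 0.0334). Of its words 11.97% are its own and 74.6% also lie in Hist1h2bk. It passed in 7 of the 18 fits without 1 library and did not pass without the 6 libraries a, b or c (2.13, 3.16 and 2.75, edgeR adjusted p = 0.107, 0.423 and 0.738).

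Hist1h4h (ENSMUSG00000060981, chr13:23531050-23531519, plus strand, 1 exon), a core histone H4 gene, had 4.81 to 7.96 CPM in spleen (median 6.07), 4.73 to 17.3 CPM in cLP (median 8.81) and 12.5 to 23.5 CPM in siLP (median 17.3). Its siLP libraries also lay above all spleen libraries, and the log2 fold change was 1.5 ± 0.33 (edgeR adjusted p = 0.0457). It passed in only 2 of the 18 fits that left out 1 library, and without the 6 libraries a, b or c its edgeR adjusted p was 0.0724, 0.809 and 0.859.

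**Figure D3:**
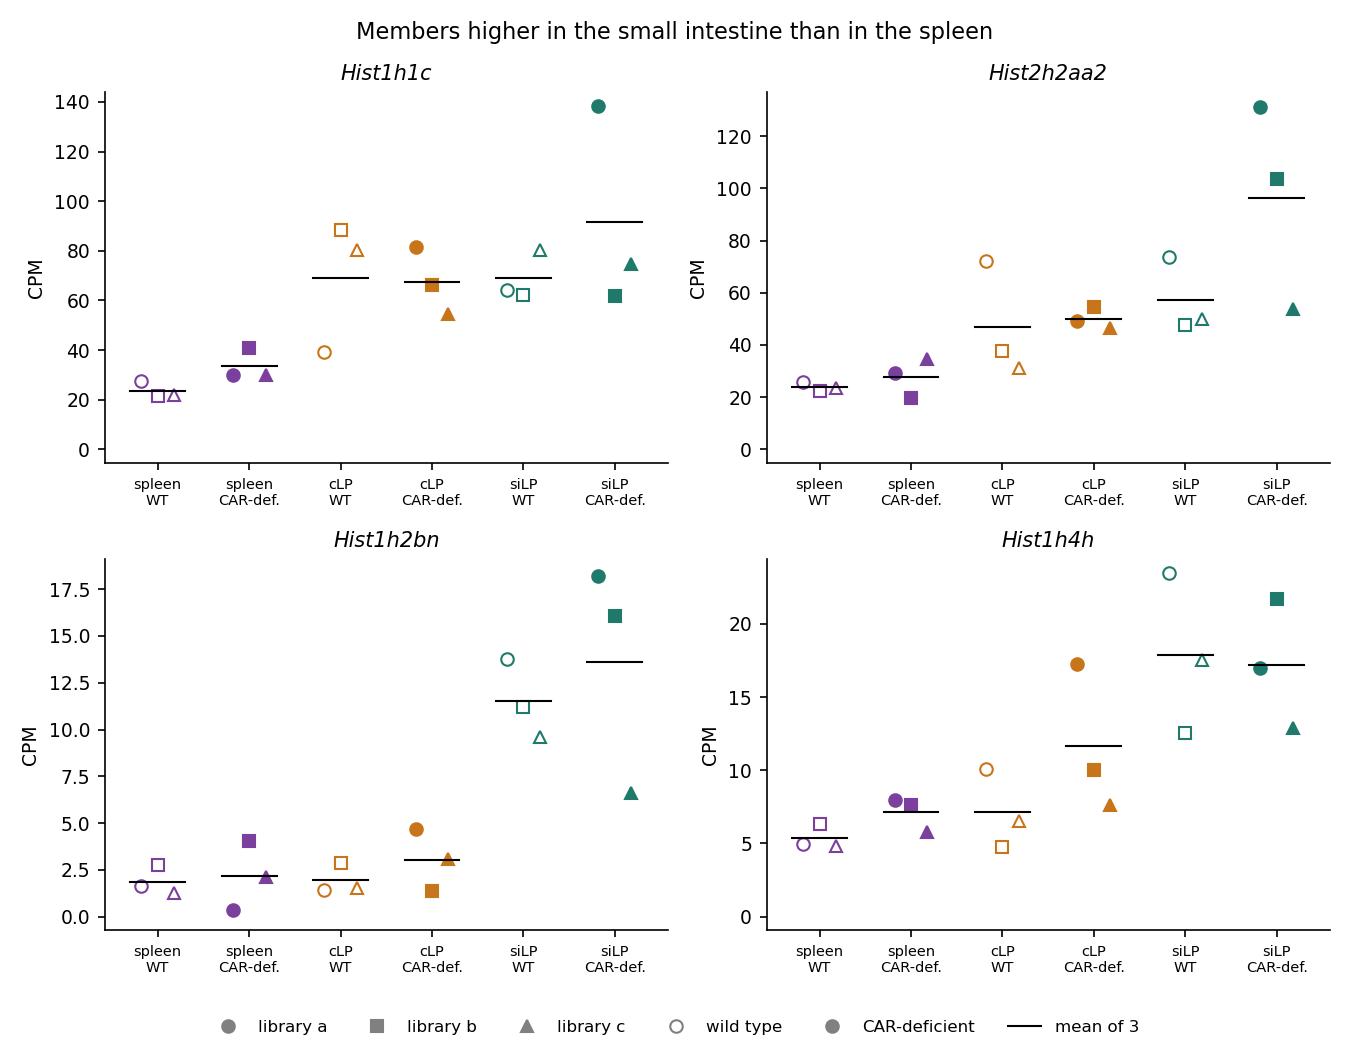
CPM per library of the 4 members called higher in siLP than in spleen, with marks as in the plot of summed CPM. In each panel the 6 siLP libraries lie above the 6 spleen libraries, and for Hist1h2bn also above the 6 cLP libraries.

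Groups that did not overlap were a little more frequent than calls. In siLP against spleen 7 members were higher in every library, against 1.83% of all genes: the 4 called ones with Hist1h3e, Hist1h4k and the pseudogene Hist3h2bb-ps. In siLP against cLP 5 members did so, against 0.222% of all genes: Hist1h1d, Hist1h2bn, Hist1h3e, Hist1h4k and Hist3h2bb-ps. Hist1h3e, a core histone H3 gene, had 5.69 to 19.62 CPM in spleen, 0 to 15.01 CPM in cLP and 25.5 to 36.3 CPM in siLP. The linker histone gene Hist1h1d had 5.85 to 14.4 CPM in cLP and 18.2 to 41.6 CPM in siLP. In cLP against spleen only Hist3h2a, a core histone H2A gene on chromosome 11, did so, with 27.95 to 39.4 against 7.69 to 23.6 CPM, against 2.31% of all genes. None was lower in every cLP library, against 1.16% of all genes.

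The median over the 66 members moved in opposite directions in the 2 gut sites. In cLP against spleen the median log2 fold change was -0.43, with 48 members below 0, beside a median of 0.0028 over all genes. In siLP against spleen it was 0.61, with 52 members above 0, beside -0.0096 over all genes. In siLP against cLP it was 0.92, with 61 members above 0, beside -0.02 over all genes. The 3 comparisons share libraries, so these medians are not separate observations.

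No member was called between siLP and cLP, where 0% of all genes passed (edgeR adjusted p). At an unadjusted p under 0.05 edgeR counted 22 of the 66 members and 1240 of the 14876 genes, and DESeq2 called 8 members against 1.68% of all genes. The 3 smallest p-values belonged to Hist1h2bn (2.37 ± 0.56), Hist1h3f (1.58 ± 0.37) and Hist1h4n (1.53 ± 0.36), each with edgeR adjusted p = 0.192. Hist1h3f, a core histone H3 gene, had 4.34 to 10.5 CPM in cLP and 10.3 to 33.0 CPM in siLP. All 13 H4 genes, all 16 tested H2B genes and all 5 tested H1 genes lay above 0 in this comparison, with 18 of 20 H2A genes and 9 of 12 H3 genes.

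**Figure D4:**
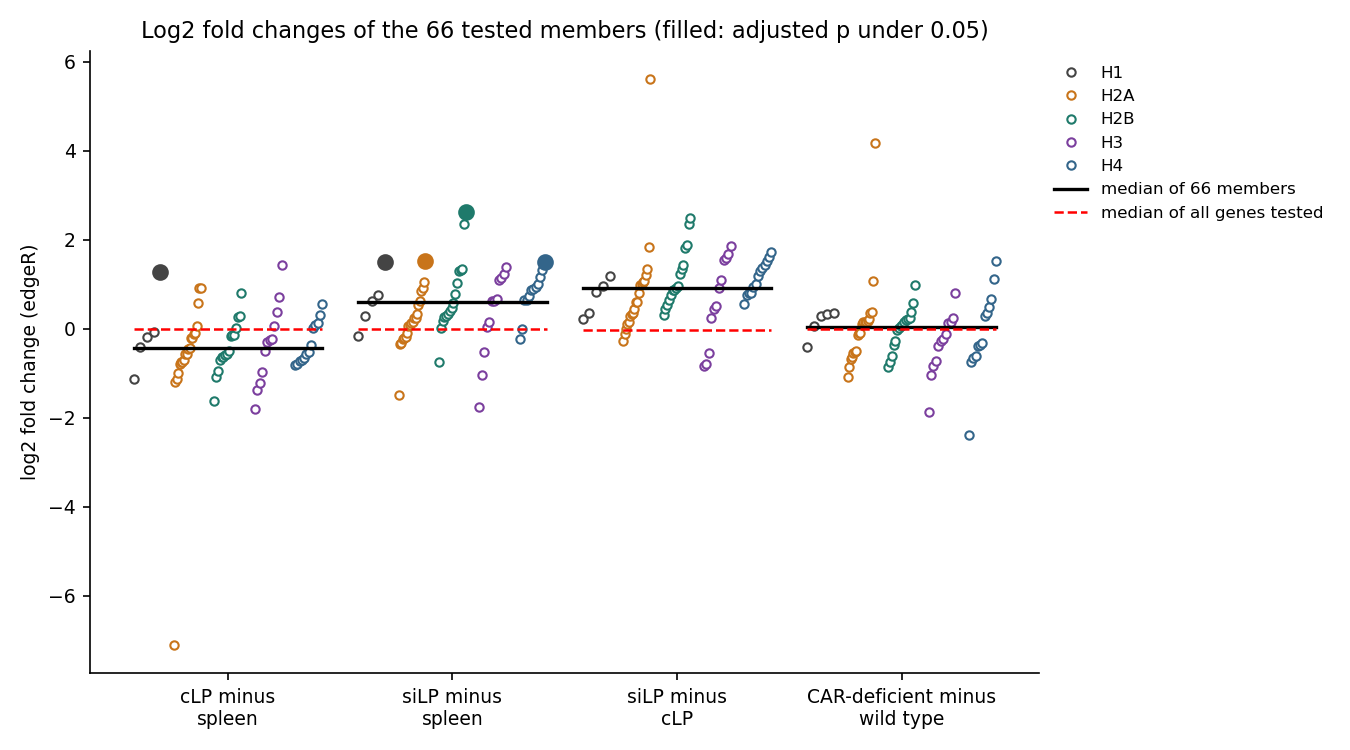
Log2 fold changes (edgeR) of the 66 tested members in 3 organ comparisons and in the genotype comparison averaged over organs, by histone class, with filled points for adjusted p under 0.05. The solid line is the median of the members and the dashed line that of all genes tested; the solid line lies at -0.43, 0.61, 0.92 and 0.04 from left to right.

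Genes of the cell cycle were compared in the same fits. Of 30 genes for DNA replication and S phase none was called between organs by edgeR, and their median log2 fold change was -0.71 in cLP and -0.58 in siLP against spleen. In siLP against cLP it was 0.19, with 19 of the 30 above 0. Mcm5, a subunit of the replicative helicase, had the smallest p in cLP (-1.08 ± 0.32, edgeR adjusted p = 0.0869). Tyms, which makes thymidylate, had it in siLP (-0.78 ± 0.23, edgeR adjusted p = 0.207).

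Of 20 mitosis genes 5 fell in cLP against spleen and none was called in siLP by edgeR. Mki67, a marker of dividing cells, had 226 to 336 CPM in spleen and 114 to 232 CPM in cLP. It fell by 0.93 ± 0.20 on the log2 scale (edgeR adjusted p = 0.0198). The mitotic cyclin Ccnb2 fell by 1.57 ± 0.32 (edgeR adjusted p = 0.0132). In siLP against spleen all 20 lay below 0 with a median of -0.76, while the histone median lay above 0. In siLP against cLP 19 of the 20 lay above 0 with a median of 0.41, on the same side as the histones.

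Of 12 genes of cell cycle exit 3 rose in cLP and 2 in siLP. The antiproliferative genes Btg2 and Tob1 rose in both: Btg2 by 1.54 ± 0.24 in cLP (edgeR adjusted p = 0.00164) and 1.73 ± 0.24 in siLP (edgeR adjusted p = 0.00102), and Tob1 by 2.19 ± 0.28 (edgeR adjusted p = 0.000329) and 1.43 ± 0.27 (edgeR adjusted p = 0.0152). The kinase inhibitor gene Cdkn1a rose in cLP by 1.73 ± 0.36 (edgeR adjusted p = 0.0149).

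The 9 tested replacement histone variants come from genes outside the clusters. Among them H3f3b rose in cLP by 1.12 ± 0.27 (edgeR adjusted p = 0.0347) and no other was called. None of 19 genes for histone gene transcription and 3′ end processing, 10 for histone mRNA decay and 18 for histone chaperones was called by edgeR in an organ comparison. Slbp, whose product binds the stem-loop, had medians of 474, 608 and 439 CPM in spleen, cLP and siLP. The gene of the coactivator Npat had medians of 24.9, 29.9 and 16.95 CPM. Between siLP and cLP Slbp differed by -0.48 ± 0.18 (edgeR adjusted p = 0.363) and Npat by -0.99 ± 0.35 (edgeR adjusted p = 0.324).

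Markers of other cells differed between the organs. The 7 erythroid and megakaryocyte genes summed to 136 to 2129 CPM in spleen, 1.04 to 18.7 CPM in cLP and 1.77 to 12.8 CPM in siLP, with 2 at 0 in each gut site. The 9 myeloid genes summed to 5.39 to 27.1, 17.6 to 87.9 (1 at 0) and 38.2 to 134 CPM, and the 9 epithelial genes to 7.7 to 13.0 (1 at 0), 20.9 to 232 and 4.73 to 23.7 CPM (2 at 0). The 7 B and plasma cell genes reached at most 7.08, 38.5 and 11.7 CPM, with 2 at 0 in spleen and 1 in siLP. The 6 stroma and endothelium genes summed to 47.5 to 81.5 (1 at 0), 104 to 223 and 60.1 to 133 CPM, and the 8 genes of CD8 T, NK and innate lymphoid cells to 312 to 398, 394 to 722 and 340 to 591 CPM. Those 8 include Gata3 and Rora beside Cd8a, and Cd8a reached at most 2.44 CPM in any library. Their sum therefore does not show that such cells were present. The 10 CD4 T cell genes summed to 9989 to 17960, 9498 to 18240 and 10550 to 15890 CPM. The part of these cells in the organ values was not tested.

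The genotype comparison asked which members differ between CAR-deficient and wild type cells. Averaged over the organs edgeR called 0 of the 66 members, in a fit with no term for the column ending. The share of all genes was 0.0134%, 0.00672% in either direction. At an unadjusted p under 0.05 edgeR counted 7 members and 859 of the 14876 genes, and DESeq2 called 3 members against 0.902% of all genes. Hist1h4n is in both counts and had helped to choose the family, so nothing is read from these shares. The median log2 fold change of the members was 0.04, beside -0.0091 over all genes, with 34 above and 32 below 0. Within spleen, cLP and siLP edgeR called 0 members, against 0% of all genes in each. At an unadjusted p under 0.05 the members numbered 2, 5 and 6, beside 290, 363 and 641 of the 14876 genes. Hist1h4n is in each of these counts too, so nothing is read from them. DESeq2 called 0 members in each, against 0.11%, 0.0608% and 0.293% of all genes. For scale, Btg2 was called in the average at 1.66 ± 0.19 (edgeR adjusted p = 0.00362).

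The smallest p-value in the average was that of Hist1h4n, which earlier results had singled out, so its values are a description. In spleen its counts were 632, 286 and 192 for wild type libraries a, b and c, and 924, 670 and 664 for CAR-deficient ones. For cLP they were 143, 189 and 176 against 963, 541 and 443, and for siLP 692, 979 and 734 against 2149, 2129 and 1020. The CAR-deficient libraries were higher in each organ without overlap. The mean CPM was 16.3 ± 11.2 against 36.8 ± 10.4 for spleen, 8.3 ± 0.487 against 35.1 ± 21.3 for cLP and 30.9 ± 4.51 against 78.0 ± 33.5 for siLP (SD, n = 3, wild type first). The average log2 fold change was 1.53 ± 0.29 (edgeR adjusted p = 0.152).

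Its near-identical partner Hist1h4m ran the other way. In spleen it had 480, 323 and 296 counts for wild type libraries a, b and c, and 0, 14 and 193 for CAR-deficient ones. For cLP the counts were 358, 296 and 328 against 0, 3 and 211, and for siLP 985, 1122 and 1094 against 8, 4 and 561. The CAR-deficient libraries a and b held almost none, and the libraries c stood between these and the wild type libraries in all 3 organs. The average log2 fold change was -2.39 ± 1.05 (edgeR adjusted p = 0.823). Without the 6 libraries c it was -6.89 ± 0.95 (edgeR adjusted p = 0.0607), and without the 6 libraries a it was -1.63 ± 0.99 (edgeR adjusted p = 0.83).

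The 2 genes summed gave values that overlapped between the genotypes in each organ. Wild type spleen had a summed level of 32.2 ± 16.6 CPM against 39.9 ± 8.33 CPM without CAR (SD, n = 3). The same values were 24.6 ± 3.12 against 38.3 ± 18.3 CPM for cLP and 72.3 ± 5.86 against 85.6 ± 21.4 CPM for siLP. With the pair counted as 1 gene, the average log2 fold change was 0.40 ± 0.22 (edgeR adjusted p = 0.905). How reads were divided between the pair, which differs at 1 base and in the 3′ end, was not tested.

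Hist1h2aa, a histone H2A gene known from testis and the neighbour of Hist1h2ba, had the next smallest p. In spleen it had 6, 6 and 3 counts for wild type libraries a, b and c, and 161, 55 and 1 for CAR-deficient ones. For cLP the counts were 3, 5 and 7 against 125, 63 and 0, and for siLP 3, 4 and 5 against 118, 134 and 2. The CAR-deficient libraries a and b were thus above all wild type ones. The libraries c were below the wild type libraries of their organ, but both lay near the floor of 3 counts, so that difference is not read. The average log2 fold change was 4.17 ± 1.03 (edgeR adjusted p = 0.266), and 4.79 ± 0.71 without the 6 libraries c (edgeR adjusted p = 0.0783). Its neighbour Hist1h2ba had at most 4 counts in any library. What sets the libraries c apart at Hist1h4m and Hist1h2aa was not tested.

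Hist4h4 (ENSMUSG00000096010, chr6:136801553-136804415, minus strand, 1 exon), an H4 gene with 88.5% of its words to itself, had 8.11, 9.53 and 8.52 CPM for wild type spleen libraries a, b and c, against 23.6, 17.5 and 11.5 CPM without CAR. It had 5.23, 6.61 and 7.17 against 23.4, 9.27 and 10.9 CPM in cLP, and 13.8, 14.8 and 10.7 against 45.0, 30.3 and 11.2 CPM in siLP. The genotypes overlapped in siLP only. The average log2 fold change was 1.11 ± 0.29 (edgeR adjusted p = 0.337), and 0.63 ± 0.27 without the 6 libraries a (edgeR adjusted p = 0.767). Hist1h2ap, the highest member, differed by -0.52 ± 0.23 on average (edgeR adjusted p = 0.812).

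**Figure D5:**
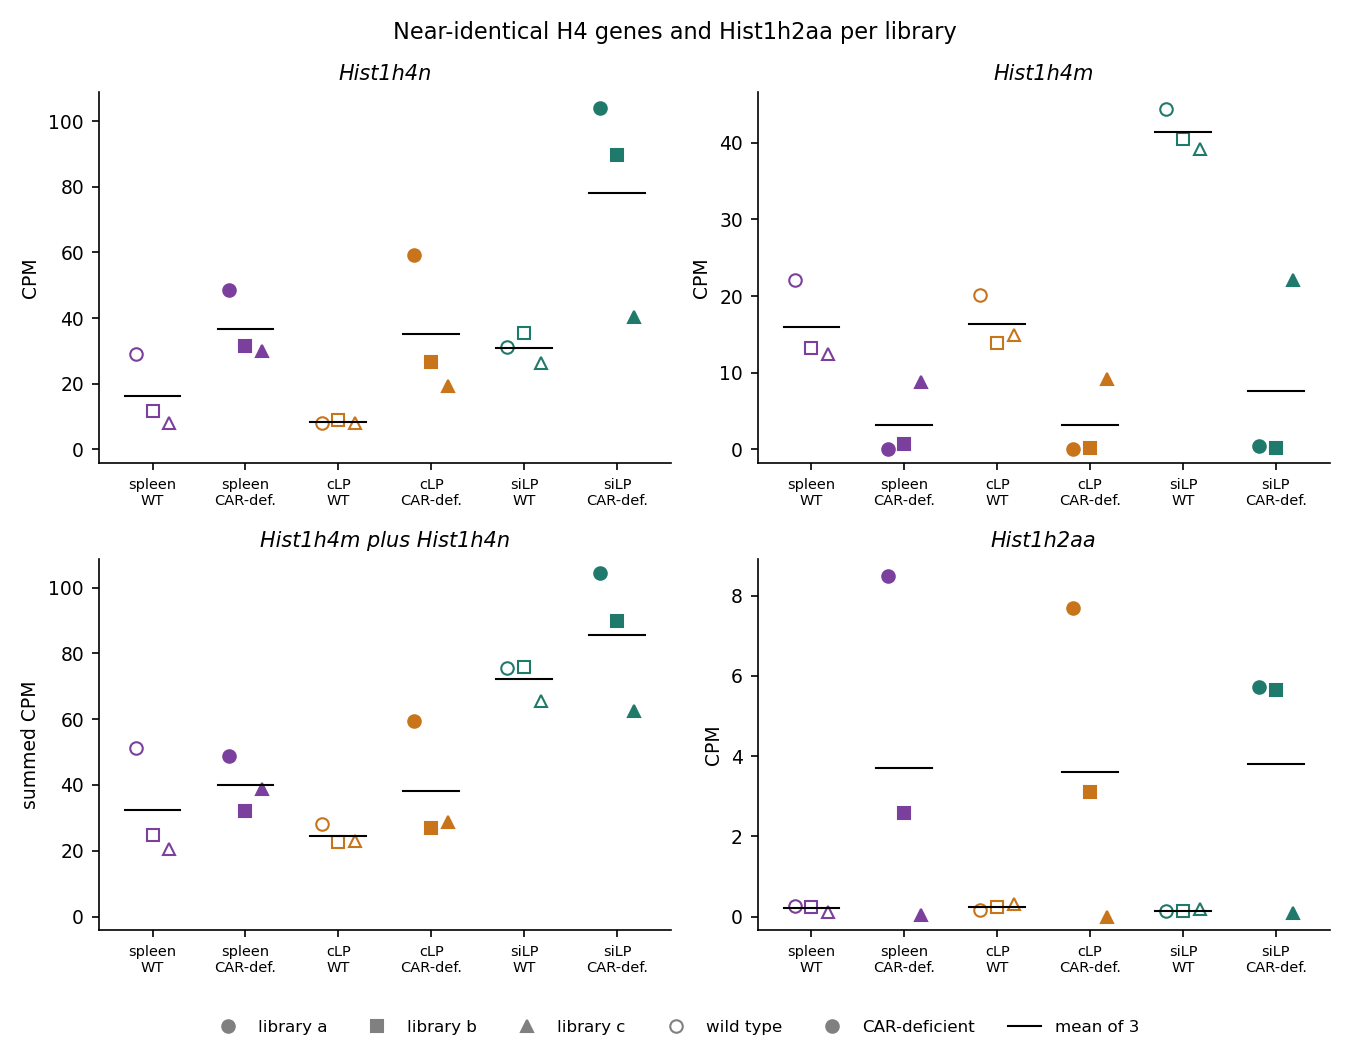
CPM per library of Hist1h4n, Hist1h4m, their sum and Hist1h2aa, with marks as in the plot of summed CPM. The CAR-deficient libraries a and b lie near 0 for Hist1h4m and above the wild type ones for Hist1h2aa, while the CAR-deficient libraries c do neither, and the sums of the H4 pair overlap between genotypes in each organ.

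In siLP 13 members were lower in all 3 CAR-deficient libraries than in all 3 wild type ones, against 4.52% of all genes, and 1, Hist1h4n, was higher, against 3.8%. Among the 13 were Hist1h2ap (mean 2700 ± 350 CPM against 1468 ± 124 CPM without CAR, SD, n = 3), Hist1h2ae, Hist1h2bj and Hist1h4d. None passed the edgeR test after adjustment; the difference was -0.88 ± 0.39 for Hist1h2ap and -1.02 ± 0.45 for Hist1h2ae, with edgeR adjusted p = 1 for both. In spleen 4 members were higher and 2 lower without overlap, against 3.23% and 3.09% of all genes, and in cLP 3 were higher and 3 lower, against 4.09% and 3.32%. In the same siLP comparison 29 of 30 DNA replication genes and 17 of 20 mitosis genes lay below 0, with medians of -0.55 and -0.56 beside 0 over all genes and -0.25 over the members. Their part in the histone values was not tested. Over all 9 against 9 libraries within organs Hist1h4n was the 1 member that was higher in each organ and Hist1h4m the 1 that was lower, beside 0.0739% of all genes in either direction. Within each organ too, Hist1h4n is in the count of higher members and Hist1h4m in that of lower ones. Nothing is read from the shares without overlap, within organs or over all. The values of Hist1h4n had helped to choose the family, and Hist1h4m shares most of its sequence.

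The genotype effect was also compared between gut and spleen. edgeR called 0 of the 66 members, against 0% of all genes, with 0 members and 228 of the 14876 genes at an unadjusted p under 0.05, and DESeq2 called 0 members against 0.0572% of all genes. The smallest p-values belonged to Hist2h3c1 (-6.05 ± 3.04), Hist2h2ab (2.20 ± 1.18) and Hist1h3b (-3.29 ± 1.83), each with edgeR adjusted p = 0.9999. These are core histone genes with few counts: Hist2h3c1 had counts in 9 of the 18 libraries and Hist1h3b in 16. For Hist1h4n the genotype effect in gut minus that in spleen changed sign, to -0.38, without the 6 libraries a.

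Members also differed by column ending, which every group shares. A test over the 3 endings, with the groups in the fit, called 6 members, against 15.8% of all genes, so the share was below the background: Hist1h2bj, Hist2h2bb, Hist2h3b, Hist1h4c, Hist3h2ba and Hist1h4n. Libraries a were higher than c in 9 members and higher than b in 3, against 8.86% and 6.4% of all genes. edgeR called no member lower in a, against 10.5% for c and 7.58% for b, and none between b and c, against 0.35% of all genes, 0.255% higher and 0.0941% lower. For b against c edgeR counted 3 members and 1188 of the 14876 genes at an unadjusted p under 0.05. DESeq2's likelihood ratio test over the endings called 18 members against 24.3% of all genes, and DESeq2 called Hist1h4m lower in a than in c (-3.95, DESeq2 adjusted p = 0.000837). That value rests on the CAR-deficient libraries, with 0, 0 and 0.387 CPM in a against 8.74, 9.23 and 22.1 CPM in c (spleen, cLP, siLP). In wild type libraries a lay above c, with 22.1, 20.15 and 44.4 against 12.5, 14.9 and 39.2 CPM. The summed CD4 T cell genes also split by ending, with 15290 to 18240 CPM in a, 10550 to 14050 CPM in b and 9498 to 11180 CPM in c. Their part in the ending values was not tested.

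The H2B gene Hist1h2bj had 30.2 to 67.05 CPM in the 6 libraries a (median 48.6), 9.76 to 38.2 CPM in b (median 24.6) and 11.4 to 39.8 CPM in c (median 18.3). It was higher in a than in c by 1.26 ± 0.23 on the log2 scale (edgeR adjusted p = 0.00216). Hist2h2bb had 19.59 to 56.7, 11.2 to 34.7 and 7.53 to 14.95 CPM (1.65 ± 0.29, edgeR adjusted p = 0.00189), and here no library a overlapped the libraries c. Hist2h3b, the highest H3 gene, had 22.0 to 57.8, 9.84 to 39.7 and 9.12 to 21.7 CPM (1.53 ± 0.29, edgeR adjusted p = 0.0027), again without overlap between a and c. How many of all genes show no overlap between a and c was not counted, so nothing about these members is read from it.

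Hist1h4c had 23.5 to 109, 14.6 to 79.9 and 11.4 to 41.7 CPM (1.30 ± 0.29, edgeR adjusted p = 0.00806), with overlap. Hist3h2ba had 4.61 to 23.5, 2.45 to 4.38 and 1.54 to 4.54 CPM (1.75 ± 0.46, edgeR adjusted p = 0.0176), without overlap between a and c. Nothing is read from that either, for the same reason. The median member differed by 0.53 between a and c, beside -0.27 over all genes. By contrast the linker histone Hist1h1e had medians of 10.6, 33.4 and 20.3 CPM in a, b and c (a minus b -1.27 ± 0.46, edgeR adjusted p = 0.0835). What the endings stand for is not given in the sources used here.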

How the data were processed

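RNA was measured in 18 libraries of sorted CD4+ effector T cells. Per the file headers, the deposited columns used here hold estimated counts per gene. Another 36 columns of per-sample values, abundances and lengths, were not used. For Salmon, DESeq2 and mm10 the submitters' processing notes give no versions or roles, and the annotation is not given in the sources used here. Columns name organ and CD45.1 status, with CD45.1-negative columns taken as CAR-deficient by elimination. They carry no replicate numbers, so a, b and c follow the column endings and are names only. No label says whether the 3 libraries of a group are from different mice, so p-values measure only the spread between libraries, which may be technical. The chemistry in its usual form does not keep strand.

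Counts were rounded, filtered with filterByExpr (14876 genes), scaled by TMM and fitted with 6 group means over all 18 libraries in edgeR 4.0.16 under R 4.3.3 (glmQLFit, glmQLFTest, two-sided, Benjamini-Hochberg over all genes, threshold 0.05, common biological coefficient of variation 0.791). The column-ending test added the ending as a term. Standard errors were obtained by dividing the size of each log2 fold change by the root of its F statistic. The floor of 3 counts covers counting error only, since amplified reads carry no molecular identifiers. All 34162 identifiers matched vM21, and 0% of counts lacked a gene name. The alternatives were RLE scaling, no filter, DESeq2 1.42.0, the ending as a block and each library left out in turn. Merging members that share 80% or more of their 31-base words in both directions (13 members into 6), and leaving out each ending, were chosen after seeing the data. The fit was tested on simulated data with known fold changes. Members, gene lists and tests were chosen with earlier results of these data known. Named members are the 3 highest per class by CPM per kb, up to 10 called members per direction in a comparison (or the 3 with the smallest p where none passed) and Hist1h4n. Named genes of other lists are up to 2 with the smallest p, with Btg2, Mki67, Slbp and Npat. Hist1h4m, Hist1h2ao, Cdkn1a and the members named for groups without overlap, low levels or column endings were chosen after their values were seen.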

Additional observations from a re-analysis of the deposited data

How the results depend on the processing

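The number of members called depended on the setting. The shares of all genes for the main fit and for DESeq2 are given above. For the other settings no share of all genes is set beside the counts, so nothing about the members is read from them. For siLP against spleen (4 called) it was 2 with no filter on low counts, 7 with DESeq2, 1 without the 6 libraries a, and 0 without the 6 libraries b or c. Leaving out 1 library gave 2 to 5, with 2 in 11 of 18 fits. For cLP against spleen (1 called) it was 3 with DESeq2, 2 without libraries a (Hist1h1c, and Hist1h2ap lower), 0 without libraries b or c, and 1 in all 18 fits without 1 library. For siLP against cLP (0 called by edgeR, 22 unadjusted) it was 8 with DESeq2 and 3 without libraries a. For the genotype average (0 called by edgeR, 7 unadjusted) DESeq2 called 3: Hist1h4n, Hist1h2aa and Hist4h4. The genotype values of Hist1h4n had helped to choose the family, so its call supports nothing. The column-ending count (6) was 18 with DESeq2 and 3 to 10 with 1 library left out, the lowest without spleen CAR-deficient a and the highest without siLP CAR-deficient a. The planned fit with transcript length offsets was not run. Fits without 6 libraries have fewer samples; the other causes were not tested.

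With the column ending as a replicate block, siLP against cLP gave 1 call and cLP against spleen 3, again without the share of all genes. The genotype average gave 1, Hist1h4n (1.48, edgeR adjusted p = 0.0349). Nothing is read from that call, since the genotype values of this gene had helped to choose the family. For deviations from group means, r passed 0.1 in 40 of 45 same-ending pairs (from -0.013 to 0.461) and in 8 of 90 others. Of 18 libraries 17 correlated best with their own ending, which is a hint from the data and not the design.

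The genotype effect in gut minus spleen reversed for Hist1h4n without libraries a (-0.38) and without spleen wild type a (-0.21), and for Hist2h3c1 without libraries b (2.81) and without spleen CAR-deficient b (1.22). Of the other single values over all alternatives, 788 kept side and direction, 46 lost the threshold and 10 gained it. Hist1h2ba, with at most 4 counts, lay near the floor of 3, as did Hist1h2aa in the wild type libraries and the CAR-deficient libraries c.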

Other observations

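In the genotype average 29 of 30 DNA replication genes lay below 0, with a median log2 fold change of -0.405 beside -0.0091 over all genes. edgeR called 0 of them after adjustment and counted 5 at an unadjusted p under 0.05. Tyms had -0.61 ± 0.19 (edgeR adjusted p = 0.525). Of 20 mitosis genes 18 lay below 0, with a median of -0.39, 0 called and 2 at an unadjusted p under 0.05. Ube2c, which drives the destruction of mitotic proteins, had -0.65 ± 0.19 (edgeR adjusted p = 0.464). The histone median in the same comparison was 0.04.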
